A study of Homo sapiens with 9 samples.

Results

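THSD4 and the fibrillin microfibril genes were followed in SH-Sy5y cells, a human neuroblastoma line, after transfection of a miR-1229-3p mimic. The set holds THSD4, the fibrillins FBN1, FBN2 and FBN3, the latent TGF-beta binding proteins LTBP1 to LTBP4 and the microfibril protein MFAP2, 9 genes in all. THSD4 was chosen for its rise with the mimic in these same libraries and is described without a test, while the other 8 genes were added by family. The count table had a row for 7 of the 9 among its 14943 genes. FBN2 and FBN3 had none under their symbol, identifier or an older symbol. The authors filtered the table on expression, and the lowest gene left in it had an estimated count of 8.43 in its 3rd highest library. FBN2 and FBN3 were not analysed here.

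All cells were grown in serum, received the same total amount of oligonucleotide by lipofection and were lysed after 48 h. The control group (Ctrl.) received 40 pmol of a negative control oligonucleotide and no mimic. The 10 nM group received 20 pmol of mimic with 20 pmol of the control oligonucleotide, and the 20 nM group 40 pmol of mimic and none of the control oligonucleotide, so the amounts of both molecules differ between these groups in opposite directions. Each group had 3 polyadenylated RNA libraries. RNA from more than 1 well was pooled where possible, the labels do not say whether libraries came from separate cultures, and p-values therefore measure only the spread between these libraries, which may be technical. No library without transfection was analysed here.

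Fibrillins assemble outside the cell into long beaded microfibrils, which stand alone or form the scaffold of elastic fibres. THSD4, also called ADAMTSL6, is a secreted protein of the ADAMTS-like family that binds fibrillin and promotes microfibril assembly. TGF-beta leaves the cell bound in an inactive complex, which LTBP1, LTBP3 and LTBP4 tether to these microfibrils until integrins or proteases release the growth factor. LTBP2 resembles them and binds fibrillin but does not carry TGF-beta. MFAP2 decorates the microfibril beads.

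A microRNA lowers mRNAs that pair with its seed, bases 2 to 8 from its 5′ end, in the 3′ untranslated region (UTR). The mature microRNA and the match to it in THSD4 are shown because they place this gene, which was higher with the mimic, among genes with a weak match only. The capitals mark the seed in the microRNA and the 6 matching bases in the mRNA, and both sequences run 5′ to 3′.
miR-1229-3p: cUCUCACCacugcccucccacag
THSD4: ttaaactgtccGTGAGAcaagaaagcca
The microRNA sequence is from RefSeq (GRCh38.p14, chromosome 5, 179798278 to 179798300, minus strand). The mRNA stretch comes from the longest annotated 3′ UTR of the gene (GENCODE 44, GRCh38.p14). The match in THSD4 lies at 71778354 to 71778359 on the plus strand of chromosome 15, at base 980 of a UTR of 6009 bases that is longer than 93.9% of those examined.

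It is the 6-base match GTGAGA without the extension to the 7-mers GGTGAGA or GTGAGAA or the 8-mer GGTGAGAA. Among the UTRs described here, no match of any of these kinds was found in those of FBN1 (3613 bases), LTBP1 (964), LTBP2 (2701), LTBP4 (268) or MFAP2 (418). Over the 13778 genes of the table with a usable UTR, 15.76% had a 6-mer as their strongest match, 22.6% a 7-mer or 8-mer and 61.64% none. The sense strand was searched, each 6-mer lies inside every longer match, and a match in letters is not evidence of binding.

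The libraries held 17.4 to 28.2 M estimated counts. A single one, 20 nM replicate 3, stood apart, with a first principal component of log2 CPM (counts scaled to the library total with TMM factors) of 47.4 where no other library exceeded 7.72. The surrogate variable of the fit by group, a covariate for unexplained variation, was 0.907 in that library against -0.2422 to 0.0602 in the others. It rose from replicate 1 to replicate 3 within each group. All 12 noradrenergic neuroblastoma markers had a row, with summed levels of 6850 to 8040 CPM, although TH, the enzyme that opens catecholamine synthesis, stayed under 1 CPM. Of 13 fibroblast and mesenchymal markers 11 had a row and PRRX1 and POSTN did not. Replicates 1, 2 and 3 of Ctrl. summed to 1990, 2020 and 1810 CPM of these 11, those of the lower concentration to 2050, 1980 and 1830, and those of the higher one to 2010, 1960 and 1890. At 20 nM against Ctrl., edgeR called 7.8% of all genes higher and 6.08% lower, at an adjusted p under 0.05. Of the 12 noradrenergic markers 0 were called higher and 4 lower, TH among them. At this concentration 2 of the 11 mesenchymal markers were called higher (LUM and PDGFRA) and none lower. LUM was at 42.7, 41.2 and 14.5 CPM there, with replicate 3 below every control (26.5 to 36.7), so its fitted change of 0.564 stands beside a mean of 32.8 against 30.9 CPM in Ctrl. In bulk RNA, fewer cells of a type and less RNA per cell cannot be told apart.

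Levels were compared between genes per length, as CPM per kb of annotated exons. In Ctrl. (mean ± SD, n = 3), MFAP2 stood first at 76.0 ± 4.06, followed by LTBP3 at 18.5 ± 1.39 and LTBP4 at 10.0 ± 0.415. FBN1, the fibre backbone, came next at 8.07 ± 0.816. LTBP2 was at 3.81 ± 0.238, THSD4 at 1.64 ± 0.1 and LTBP1 at 1.04 ± 0.132. The libraries of neighbouring genes in this order did not overlap in any of the 3 groups, and the order was the same in each.

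THSD4 moved towards its upper neighbour without passing it. Its length-scaled level was 1.64 CPM per kb in Ctrl., 2.18 at 10 nM and 3.09 at 20 nM, beside 3.81, 4.48 and 5.05 for LTBP2. With the longest transcript as the length the order held, but at 20 nM THSD4 (5.11 to 5.43 CPM per kb) and LTBP2 (5.1 to 5.79) overlapped. The transcripts these cells use were not measured per gene here.

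**Figure D1:**
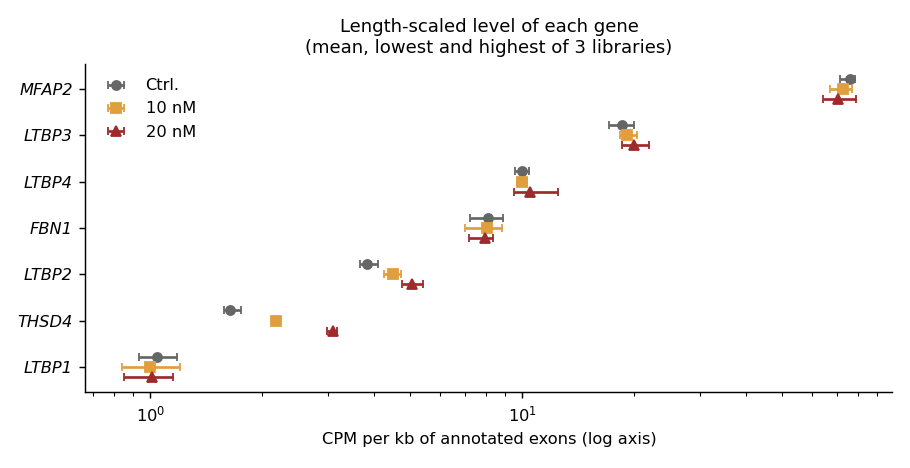
Level of each gene in CPM per kb of annotated exons on a log axis, with the mean (symbol) and the lowest and highest of 3 libraries (bar) in Ctrl., 10 nM and 20 nM. MFAP2 stands at 76.0 in Ctrl. and LTBP1 at 1.04, and THSD4 moves from 1.64 to 3.09 below LTBP2.

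THSD4 (ENSG00000187720, chromosome 15, 71096952 to 71783383, plus strand, GRCh38.p14) spans 686.4 kb. Its CPM was 25.37, 25.30 and 28.12 in replicates 1, 2 and 3 of Ctrl. It was 34.20, 35.24 and 35.37 at 10 nM. It was 50.01, 50.92 and 47.85 at 20 nM. No library of one group reached into the next, and the spread within each group was smaller than either gap between them.

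The fitted log2 fold change of THSD4 was 0.41 at 10 nM and 0.93 at 20 nM against Ctrl., or 1.33-fold and 1.91-fold. The step from 10 to 20 nM was 0.52. Over the alternative settings of the analysis the value at 20 nM lay between 0.90 and 0.99 and that at 10 nM between 0.39 and 0.47. Against the same-numbered control, the log2 ratio of CPM at 20 nM was 0.98, 1.01 and 0.77. The smallest of these belongs to 20 nM replicate 3, the library that stands apart, where the control of the same number is also the highest of the controls.

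The ratio of THSD4 to FBN1 counts does not depend on how libraries are scaled. It was 0.168, 0.154 and 0.21 in Ctrl., 0.223, 0.215 and 0.272 at 10 nM and 0.328, 0.331 and 0.359 at 20 nM. Replicate 3 had the highest ratio in each group, and the 3 groups were still separate. HMGB1P6, a pseudogene with its own row, lies inside THSD4 on the other strand but shares 0 exon bases with it. CT62 and ENSG00000278408, long noncoding RNA genes on the other strand without a row, share 24 and 191 exon bases with THSD4. The part of their reads in the THSD4 counts was not tested.

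**Figure D2:**
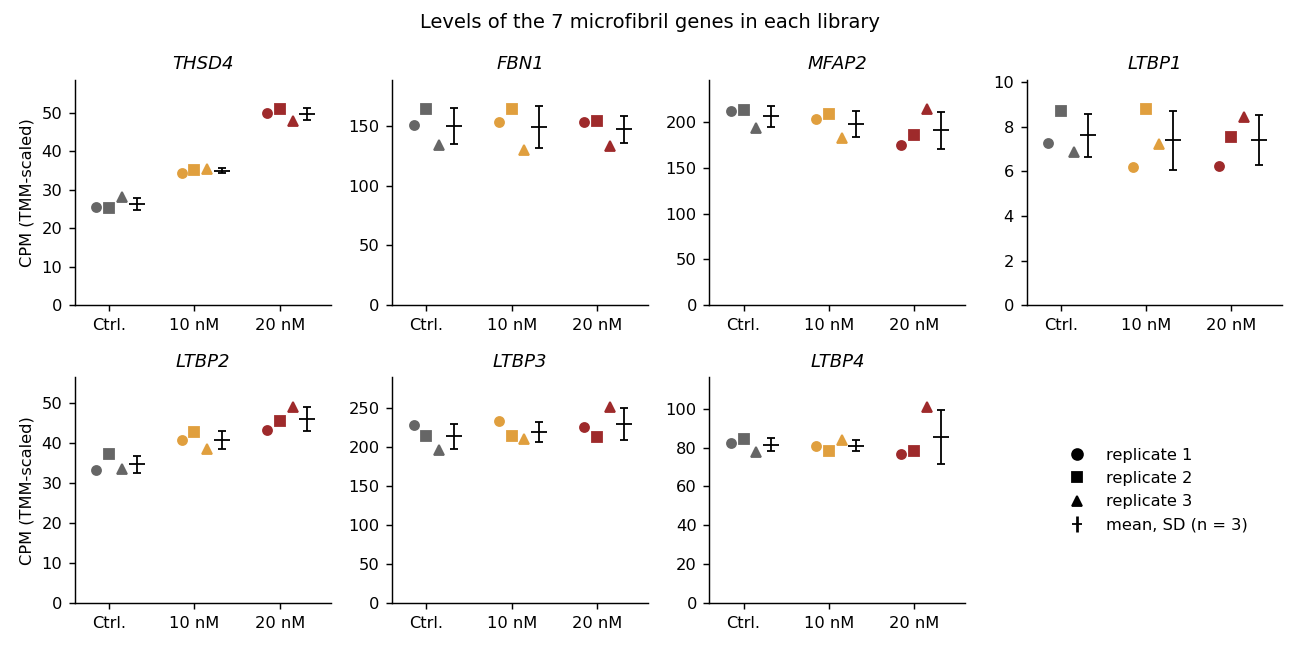
CPM (TMM-scaled) of the 7 genes in each library, by group, with symbols for replicate 1 (circle), 2 (square) and 3 (triangle) and the mean and SD of 3 libraries beside them. THSD4 and LTBP2 rise in separate steps, FBN1 is lowest in replicate 3 of each group, and LTBP3, LTBP4 and MFAP2 are highest at 20 nM in replicate 3.

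The other 6 genes were tested with the quasi-likelihood test of edgeR over all 9 libraries, and a gene was called at a Benjamini-Hochberg adjusted p under 0.05 among the 14943. At 10 nM none of the 6 was called (1 at an unadjusted p under 0.05, and 0 by DESeq2), against a background of 0.221% of all genes called higher and 0.428% called lower. At 20 nM, LTBP2 was called higher and none lower, 1 of 6 against 7.8% higher and 6.08% lower among all genes. From 10 to 20 nM none was called (0 at an unadjusted p under 0.05, and 0 by DESeq2), where 1.91% of all genes were called higher and 0.883% lower. With the concentration fitted as a number, as a fold change per 20 nM, LTBP2 was again the call, against 9.84% higher and 7.69% lower. The median log2 fold change of the 6 was -0.017 at 20 nM and -0.003 in this dose trend, beside a median of -0.001 over all genes in the latter. The comparisons share their control libraries.

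**Figure D3:**
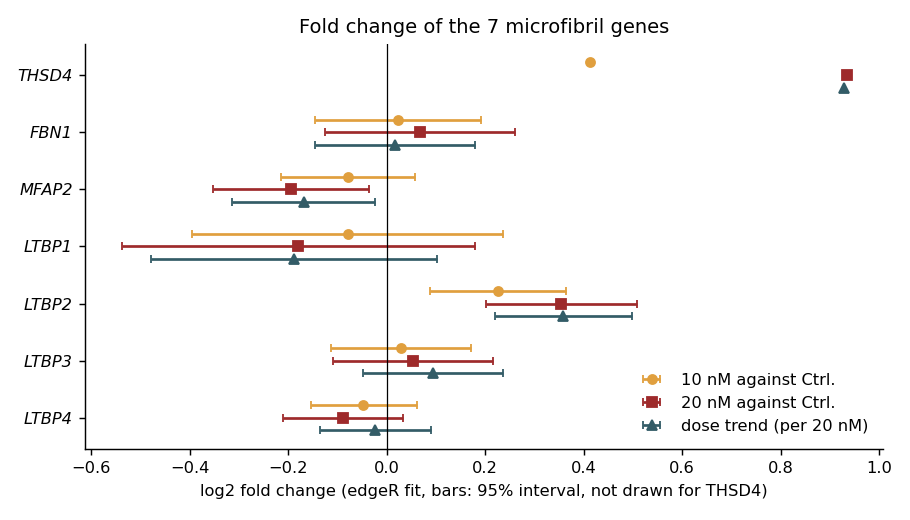
Fitted log2 fold change of each gene at 10 nM and 20 nM against Ctrl. and in the dose trend per 20 nM, with 95% intervals from the edgeR fit except for THSD4, which was chosen by this rise. THSD4 lies at 0.93 at 20 nM, LTBP2 at 0.355 with an interval from 0.201 to 0.509, and the intervals of FBN1, LTBP1, LTBP3 and LTBP4 at 20 nM include 0.

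FBN1 (ENSG00000166147, chromosome 15, 48408313 to 48645721, minus strand), the partner that THSD4 binds, did not change detectably. Its CPM was 151, 164 and 134 in Ctrl., 153, 164 and 130 at 10 nM and 153, 154 and 133 at 20 nM. All 3 groups overlapped, and the lowest library of each group was replicate 3. The log2 fold change at 20 nM was 0.068, with a 95% interval from -0.125 to 0.26 (edgeR adjusted p = 0.677). COL3A1, a fibrillar collagen among the mesenchymal markers, was also lowest in replicate 3 of each group, at 24.1, 23.3 and 23.3 CPM against 41.6 to 48.4 in the other 6 libraries. Not every mesenchymal marker shared this, and TWIST1 at 20 nM was at 446, 469 and 692 CPM, highest in replicate 3. The part of such a shift between replicates in the FBN1 values was not tested.

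MFAP2 (ENSG00000117122, chromosome 1, 16974502 to 16980632, minus strand) was at 212, 213 and 193 CPM in Ctrl. It was at 203, 209 and 182 CPM at 10 nM and at 175, 186 and 214 CPM at 20 nM. At 20 nM replicates 1 and 2 lay below every control library, while replicate 3 lay above all of them. The log2 fold change at 20 nM was -0.194 (95% interval -0.352 to -0.036, edgeR adjusted p = 0.0998) and missed the threshold, as did the dose trend at -0.168 (edgeR adjusted p = 0.106).

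The call for MFAP2 turned on single libraries and on the surrogate variables. At 20 nM it passed in 4 of 17 alternative settings, with adjusted p between 0.0093 and 0.514 over all of them. With 1 more surrogate variable the log2 fold change was -0.256 (edgeR adjusted p = 0.0093), and with none it was -0.107 (edgeR adjusted p = 0.472). Without 20 nM replicate 3 the log2 fold change was -0.192 (edgeR adjusted p = 0.0134), without Ctrl. replicate 3 it was -0.259 (edgeR adjusted p = 0.0494) and without 10 nM replicate 3 it was -0.215 (edgeR adjusted p = 0.0292). The count ratio of MFAP2 to FBN1 was 1.4, 1.3 and 1.44 in Ctrl. and 1.14, 1.2 and 1.6 at 20 nM, again with replicate 3 on the other side of the controls.

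LTBP2 (ENSG00000119681, chromosome 14, 74498183 to 74612378, minus strand) rose with the mimic. Its CPM was 33.2, 37.1 and 33.5 in Ctrl., 40.8, 42.8 and 38.5 at 10 nM and 43.1, 45.5 and 49.0 at 20 nM. As with THSD4, which was chosen for its rise and is not counted here, the 3 groups did not overlap at either step. This pattern was shown in the rising direction by 2.16% of all genes and, among the other 6 genes, by LTBP2 alone. The gaps between groups were narrow, with 37.1 CPM in the highest control and 38.5 in the lowest 10 nM library, and 42.8 in the highest 10 nM library and 43.1 in the lowest at 20 nM.

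The log2 fold change of LTBP2 at 20 nM was 0.355 (SE 0.071, 95% interval 0.201 to 0.509, edgeR adjusted p = 0.00582), or 1.28-fold, and LTBP2 was higher in 3 of 3 same-numbered comparisons. In the dose trend it was 0.359 (SE 0.064, edgeR adjusted p = 0.00196). At 10 nM it was 0.226 (95% interval 0.088 to 0.364, edgeR adjusted p = 0.142) and from 10 to 20 nM 0.13 (95% interval -0.016 to 0.276, edgeR adjusted p = 0.408), so neither step alone passed. The call at 20 nM held in 16 of 17 settings and was lost, at 0.402 (edgeR adjusted p = 0.0522), in a fit of Ctrl. and 20 nM alone without a surrogate variable. The count ratio of LTBP2 to LTBP3 was 0.145, 0.173 and 0.17 in Ctrl., 0.174, 0.199 and 0.183 at 10 nM and 0.191, 0.213 and 0.194 at 20 nM. In this ratio the 10 and 20 nM libraries overlapped, while both groups lay above every control.

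The binding proteins that do carry latent TGF-beta gave no call in any of the 4 comparisons. LTBP1 (ENSG00000049323, chromosome 2, 32946953 to 33399509, plus strand) was the scarcest of the 7, at 7.28, 8.70 and 6.85 CPM in Ctrl., 6.17, 8.78 and 7.20 at 10 nM and 6.24, 7.53 and 8.43 at 20 nM. Its counts per library were 126 to 208, where counting alone gives an error of 8.9% at the lowest. The log2 fold change at 20 nM was -0.179, with an interval from -0.538 to 0.18 (edgeR adjusted p = 0.533), and a change of the size seen in LTBP2 in the downward direction lies inside it.

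LTBP3 (ENSG00000168056, chromosome 11, 65538559 to 65558930, minus strand) was at 229, 215 and 197 CPM in Ctrl., 234, 215 and 211 at 10 nM and 226, 213 and 252 at 20 nM. Its log2 fold change at 20 nM was 0.054 (95% interval -0.109 to 0.217, edgeR adjusted p = 0.698), and the groups overlapped. Whether the counting used strand is not stated, so reads of genes that overlap on opposite strands cannot be told apart.

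LTBP4 (ENSG00000090006, chromosome 19, 40592883 to 40629818, plus strand) was at 82.5, 84.2 and 77.7 CPM in Ctrl. and 80.6, 78.4 and 83.8 at 10 nM. At 20 nM it was at 76.8, 78.3 and 101 CPM. Replicate 3 was the highest 20 nM library for LTBP2, LTBP3, LTBP4, MFAP2 and LTBP1, and the lowest for THSD4 and FBN1. The log2 fold change of LTBP4 at 20 nM was -0.089 (95% interval -0.211 to 0.034, edgeR adjusted p = 0.343), below 0 although the mean CPM was 85.5 ± 13.8 against 81.5 ± 3.36 in Ctrl. (SD, n = 3). In a fit without a surrogate variable it was 0.071.

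The genes most like THSD4 across the libraries lay outside the family. Among 13682 genes with a mean of at least 1 CPM, Pearson's r of log2 CPM over the 9 libraries, which share the mimic groups, was highest for CNTN1, a neuronal cell adhesion molecule, at 0.99. CANX, the calnexin chaperone of the endoplasmic reticulum, had 0.988 and DAG1, the matrix receptor dystroglycan, 0.986. CABLES1 followed at 0.982 and WASF3, an actin regulator, at 0.977. With the group means removed, r was 0.551 for CNTN1, 0.9 for CANX, 0.454 for DAG1, 0.13 for CABLES1 and 0.406 for WASF3. Of the family, LTBP2 came nearest at 0.881, rank 322, and FBN1 was at -0.128 and MFAP2 at -0.505. With the group means removed LTBP2 was at -0.466, FBN1 at -0.312 and MFAP2 at -0.675, and LTBP1, LTBP3 and LTBP4 were below 0 as well.

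CNTN1 went from 54.4, 54.3 and 56.8 CPM in Ctrl. through 65.5, 68.8 and 70.0 at 10 nM to 85.8, 81.5 and 83.7 at 20 nM. CANX was at 408 ± 19.3, 450 ± 7.82 and 520 ± 10.4 CPM in the same order (SD, n = 3). In DAG1 the steps were smaller, with 151 ± 2.48, 161 ± 1.56 and 172 ± 0.502 CPM. As a set these genes were chosen by their likeness, and their values carry no test.

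The other genes of microfibrils and TGF-beta signalling were read from 5 lists drawn up by name, of which 77 genes had a row. At 10 nM none of the 77 was called by edgeR (15 at an unadjusted p under 0.05). DESeq2 called 1 and gave no adjusted p for 30. Among 25 elastic fibre genes and ADAMTS-like relatives, 3 were called higher and 2 lower at 20 nM, and 5 higher and 2 lower in the dose trend, with a median log2 fold change of 0.131 per 20 nM. Of all genes 7.8% were called higher and 6.08% lower at 20 nM, and 9.84% and 7.69% in the dose trend. These shares are the background for each of the 5 lists. The number at 20 nM was 8 without 20 nM replicate 3 and 3 without 20 nM replicate 2, where FBLN2 and ADAMTS10 were lost, and in the dose trend 13 without 20 nM replicate 1.

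LOXL2, a cross-linking enzyme of collagen and elastin, was at 14.7, 15.9 and 15.8 CPM in Ctrl., 15.7, 19.5 and 14.3 at 10 nM and 26.2, 30.4 and 27.1 at 20 nM. Its rise lay between 10 and 20 nM, and the dose trend was 0.87 (edgeR adjusted p = 0.00125). MFAP4, which binds elastic fibres, fell from 456, 435 and 380 CPM in Ctrl. through 390, 376 and 334 to 283, 273 and 278 at 20 nM (dose trend -0.588, edgeR adjusted p = 0.000206). FURIN, the protease that trims profibrillin and the TGF-beta precursor, rose from 37.0, 44.6 and 40.4 CPM through 47.6, 49.9 and 44.8 to 55.0, 55.8 and 65.5 (dose trend 0.467, edgeR adjusted p = 0.000612). FBLN2, a fibulin, rose by 0.595 per 20 nM (edgeR adjusted p = 0.00576), EMILIN1 by 0.215 (edgeR adjusted p = 0.0069) and ADAMTSL2, the relative of THSD4 in the list that was called, by 0.296 (edgeR adjusted p = 0.0113). ADAMTS10, a protease that binds fibrillin, fell by 0.536 (edgeR adjusted p = 0.0107), a call lost without 20 nM replicate 2. EMILIN1 and ADAMTSL2 were highest in 20 nM replicate 3, at 906 and 75.0 CPM, against at most 655 and 57.1 in any other library. Both were called in the dose trend only. At 20 nM against Ctrl. EMILIN1 was at 0.138 (edgeR adjusted p = 0.0758) and ADAMTSL2 at 0.207 (edgeR adjusted p = 0.0707).

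Of 13 TGF-beta family ligands and activators, 1 was called higher and 2 lower at 20 nM, and 1 higher and 3 lower in the dose trend, with a median of -0.071. As a share of 13 the 1 higher gene is close to that of all genes given above. GDF11, an activin-like ligand, fell from 81.4, 87.5 and 84.5 CPM in Ctrl. through 70.0, 75.6 and 74.0 to 60.6, 64.9 and 65.4 at 20 nM (dose trend -0.448, edgeR adjusted p = 5.29e-05). INHBA, the subunit of activin A, fell by 0.637 (edgeR adjusted p = 0.0029). ITGAV, a chain of the integrins that release TGF-beta, fell by 0.202 (edgeR adjusted p = 0.0224). It was not called at 20 nM against Ctrl., at -0.185 (edgeR adjusted p = 0.0699). ITGB5, which pairs with ITGAV, rose by 0.499 (edgeR adjusted p = 0.00133). TGFB1 itself, named after its values were seen, was at 34.5, 37.7 and 35.4 CPM in Ctrl., 37.7, 39.1 and 36.7 at 10 nM and 31.1, 31.5 and 36.5 at 20 nM. It was not called against Ctrl., and fell by 0.264 from 10 to 20 nM (edgeR adjusted p = 0.0454). The number at 20 nM was 6 without 20 nM replicate 3 and 5 without 10 nM replicate 1. In the dose trend the call for INHBA was lost without 20 nM replicate 1, and that for ITGAV without Ctrl. replicate 3 or 20 nM replicate 2.

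Among 11 receptors, BMPR2, for bone morphogenetic proteins, rose in the dose trend by 0.307 (edgeR adjusted p = 0.00317) and the activin receptor ACVR2B fell by 0.19 (edgeR adjusted p = 0.0299). At 20 nM against Ctrl. BMPR2 was called higher and another activin receptor, ACVR1B, lower, at -0.291 (edgeR adjusted p = 0.0317). ACVR1B was at 60.5, 54.5 and 52.8 CPM in Ctrl. and 46.0, 46.0 and 63.5 at 20 nM, with replicate 3 above every control. The receptor calls depended on the libraries. At 20 nM there were 0 without 20 nM replicate 1, and 1 without Ctrl. replicate 1 or 20 nM replicate 2. Without 20 nM replicate 3 there were 4. In the dose trend the number was 1 without Ctrl. replicate 1 or without 20 nM replicate 1 or 2, and 4 without 10 nM replicate 1 or 3. BMPR2 was not called without 20 nM replicate 1 in either fit. Of the 14 SMADs and their regulators none was called in the dose trend (2 at an unadjusted p under 0.05, and 0 by DESeq2), although leaving out 20 nM replicate 1 gave 5 and leaving out 20 nM replicate 3 gave 1. SMAD5 was called higher at 20 nM, at 0.15 (edgeR adjusted p = 0.0432), although its mean CPM was 94.2 in Ctrl. and 90.9 at 20 nM, where the libraries were at 106, 97.3 and 69.2. This call was lost whichever of the 9 libraries was left out, and by DESeq2.

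Of 14 genes that respond to the pathway, 0 were called higher and 3 lower at 20 nM and in the dose trend, where the median was -0.187. ID1, an inhibitor of differentiation factors that responds to bone morphogenetic proteins, was at 128, 133 and 123 CPM in Ctrl., 129, 131 and 127 at 10 nM and 107, 107 and 99.8 at 20 nM. Its dose trend was -0.283 (edgeR adjusted p = 0.00312), and the fall lay between 10 and 20 nM. PMEPA1, a feedback inhibitor of the pathway, fell by 0.308 (edgeR adjusted p = 0.0105). ID3, a relative of ID1, fell by 0.192 (edgeR adjusted p = 0.0362). The number was 1 without Ctrl. replicate 1 in both fits, and 1 at 20 nM without 20 nM replicate 1. In the dose trend without 20 nM replicate 1 ID1 was called lower and COL4A2 and JUNB, named after their values were seen, higher, and PMEPA1 and ID3 were not called. The call for ID3 was also lost there without Ctrl. replicate 2, 10 nM replicate 2, or 20 nM replicate 2 or 3.

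**Figure D4:**
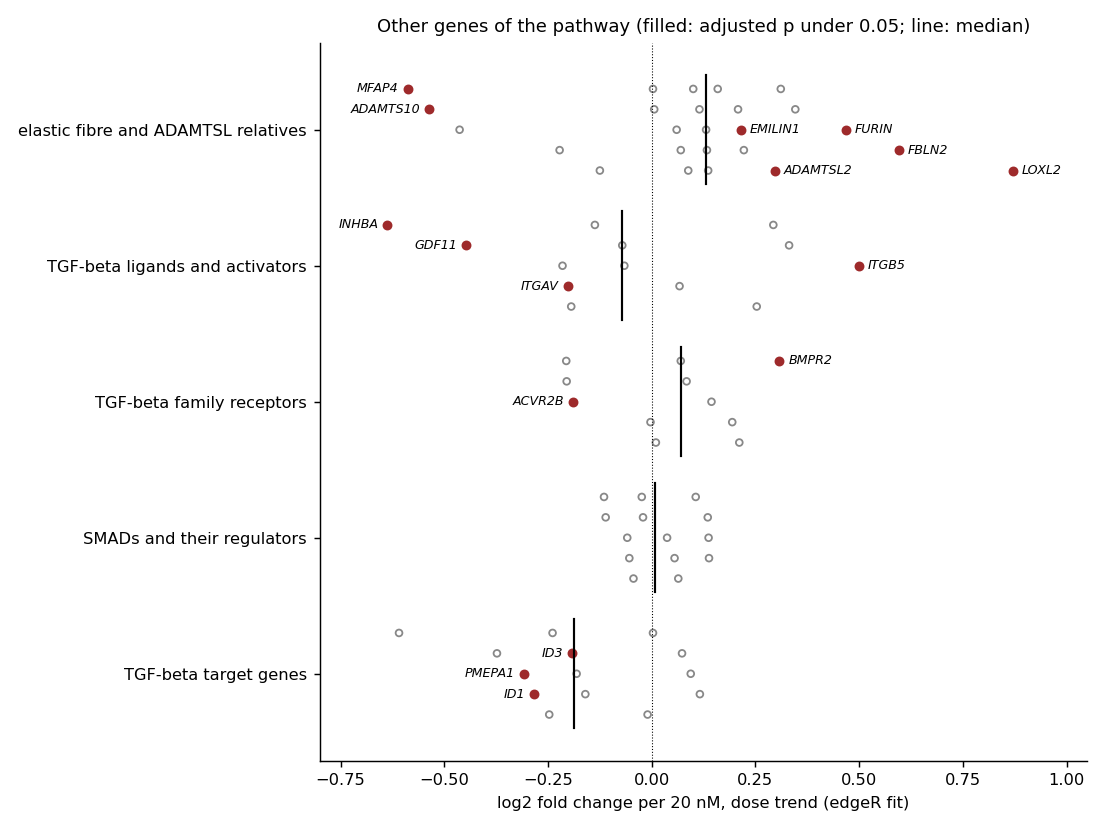
Log2 fold change per 20 nM in the dose trend for the 77 other genes of the pathway in 5 lists, with filled points for an edgeR adjusted p under 0.05, open points for the rest and a line at each list's median. LOXL2 lies farthest to the right at 0.87 and the median of the target genes lies at -0.187.

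A 7-mer or 8-mer match to the seed was present in 23 of these 77 genes. In the dose trend 6 of the 9 genes called lower had one (ADAMTS10, ITGAV, GDF11, INHBA, ACVR2B and PMEPA1). Of the 7 called higher 1 had one (ADAMTSL2). At 20 nM against Ctrl. it was 5 of 8 called lower and 1 of 6 called higher. From 10 to 20 nM it was 1 of 5 called lower and 0 of 2 called higher. Whether such a match goes with a fall was not tested, and its share among all genes called lower is not given here. MFAP4, ID1 and ID3 fell without any match. Among the 7 microfibril genes no UTR held a match of this length. Of the 6 that were tested none was called lower in any of the 4 comparisons, with MFAP2 close to the threshold as described. Of all genes 0.428% to 7.69% were called lower in these comparisons. The 0 of 6 lies near that share and carries no information on matches.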

How the data were processed

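Polyadenylated RNA of SH-Sy5y cells was sequenced in 9 libraries, grouped and numbered by their titles. The authors quantified reads with salmon on GRCh38.p13 with Ensembl annotation, summed them by gene and filtered by expression with edgeR. The deposited values are estimated counts (88.8% not whole). A deposited table of corrected log2 values and the authors' deposited tables of fold changes and p-values were not used.

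The estimated counts were rounded and fitted with edgeR 4.0.16 in R 4.3.3 (TMM scaling, quasi-likelihood test, Benjamini-Hochberg adjustment, threshold 0.05). sva 3.50.0 gave surrogate variables on log2 CPM (prior count 2), 1 in the fit by group and 2 in the fit by concentration. CPM values were not corrected for them. A filter on low counts removed 0 further genes. Fits were tested on simulated counts with 200 changed genes. DESeq2 1.42.0, other scalings and filters, other numbers of surrogate variables, a replicate block and each library left out were the alternatives, compared in the closing section.

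Every listed gene with a row was described, and of each pathway list the genes called at 20 nM or in the dose trend. The genes and lists were chosen with earlier results of these data known. Likeness to THSD4 was Pearson's r of log2 CPM. Positions and UTRs of at least 50 bases came from GENCODE 44 (GRCh38.p14), and Python 3.11.15 with pandas 2.3.3, numpy 2.4.6 and matplotlib 3.10.9 was used. Totals of 17.4 to 28.2 M estimated counts limit the precision. The UTR search is given for 6 of the 7 genes, and some other items are not reported here.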

Additional observations from a re-analysis of the deposited data

How the results depend on the processing

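THSD4 was chosen for its rise in these libraries, so fitting them again does not test its direction. Its fitted change was above 0 in each of the 4 comparisons under every alternative run. The number of the other 6 genes called stayed at 0 at 10 nM and from 10 to 20 nM. At 20 nM it was 1, and became 2 with 1 more surrogate variable (LTBP2 and MFAP2) and 0 in the fit of the 2 groups alone. It lay between 1 and 2 when single libraries were left out. In the dose trend it was 1, became 2 with 1 more surrogate variable, and lay between 1 and 2 without single libraries. The additional call was MFAP2 each time. For genes never called, the sign at 20 nM could turn. FBN1 went to -0.027 without surrogate variables, -0.025 with 1 more, -0.034 in the 2 groups alone and -0.008 to 0.136 without single libraries. LTBP4 went to 0.071 without surrogate variables and 0.064 in the 2 groups alone, and LTBP3 ranged from -0.02 to 0.118 without single libraries. The cause was not tested.

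The main fits did not pair the libraries by number. Same-numbered libraries of different groups deviated together only weakly (r of 0.0288 to 0.185 over genes, with 1 pair under 0.1). All of these r were positive, however, and 9 of 9 libraries correlated best with their own number. A low r over all genes does not show that the libraries are unpaired. Fits with the number as a block are therefore given here. With the replicate block in place of surrogate variables, LTBP2 was at 0.41 at 20 nM (edgeR adjusted p = 0.00888) and still called, MFAP2 at -0.106 (edgeR adjusted p = 0.449), FBN1 at -0.026 and LTBP4 at 0.063. The block gave 5 calls in place of 3 among ligands and activators at 20 nM, 1 in place of 2 among receptors in both fits (ACVR2B lower, with BMPR2 and ACVR1B not called), and SMAD4 lower as the 1 call among SMADs in both, with SMAD5 not called. Without surrogate variables, both at 20 nM and by dose, target genes had 1 call in place of 3 and receptors 0 in place of 2, and by dose ligands and activators 2 in place of 4. In the 2 groups alone, 20 nM gave 0 calls among target genes, 0 among receptors and 3 in place of 5 among elastic fibre genes, and 1 more surrogate variable gave 4 receptors by dose. Counting error was 8.9% for LTBP1 in its shallowest library, which limits what could be seen of its change.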
